A study of Mus musculus with 12 samples.

Results

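The immediate early genes described here are Arc and 9 genes of transcription factors or nuclear proteins that cells switch on quickly after a stimulus: Fos, Fosb, Jun, Junb, Egr1, Egr2, Nr4a1, Ier2 and Atf3. They were chosen by gene name, and each had 1 probe, so the set held 10 probes of the 55681 on the array. All 10 probes passed the filter on dim probes, among 22761 genes that did. The set was put together with results of these data known, in which Arc stood out by its low level in 1 genotype at day 3. The genotype difference at day 3, and the challenge responses of Arc, are therefore given as a description with no test. Expression was measured in aortas with 12 one-colour microarrays, 3 in each of 4 groups. All mice were young adult males on a background of 129S5/SvEvBrd, C57BL6 and SJL, and all carried Socs3fl/fl, the floxed allele of the feedback inhibitor of Stat3. The smSocs3-KO groups also carried SM22-Cre, a transgene that makes Cre recombinase under a smooth muscle promoter. The WT groups were littermates with the floxed allele and without Cre. For each genotype, 1 group was sampled before the challenge, and the other after 3 days of BAPN at 150 mg/kg/day with angiotensin II (AngII) at 1000 ng/kg/min from minipumps. BAPN blocks the crosslinking of collagen and elastin, AngII is a pressor hormone, and the pair is used as a mouse model of aortic dissection.

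Immediate early genes are transcribed within minutes of a signal from proteins that are already in the cell, and their mRNAs are usually short-lived. In the artery wall, AngII acts on its type 1 receptor and, through calcium and mitogen-activated protein kinases, on serum response factor and on Creb, which sit on the promoters of several of these genes. Most of the products are transcription factors. FOS and JUN proteins pair into AP-1, EGR proteins are zinc finger factors, Nr4a1 is an orphan nuclear receptor and Atf3 is a stress-induced factor that often represses. Arc differs from the rest: it is a protein best known from neurons, where it acts at synapses and can form capsid-like shells.

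Levels below are log2 signals relative to the 75th percentile of the array, so that 0 is the level of a fairly bright probe and 1 unit is a doubling. Probes differ in brightness, so levels of different genes are not compared. On all arrays no spot was saturated, and between 55.4% and 61.2% of spots were well above background, which means brighter than the background by 13 of its SDs. Arrays of 1 group had Pearson correlations of 0.964 to 0.992 over all tested genes. All 6 WT arrays and 1 smSocs3-KO array before the challenge lay on slide 1, and the other 5 smSocs3-KO arrays lay on slide 2. At day 3, slide and genotype cannot be told apart. Socs3 itself, the targeted gene, was not lower on the arrays labelled smSocs3-KO. Before the challenge it read 0.30, 0.32 and 0.75 in WT and 0.24, 1.14 and 1.46 in smSocs3-KO. At day 3 it read 2.21, 2.30 and 0.64 in WT and 3.31, 2.28 and 4.13 in smSocs3-KO. Whether its probe lies in the deleted part is not given in the sources used here, and the groups below are called by their labels. The labels number the arrays of a group but do not say that each came from a separate mouse, so p-values measure the spread between these samples.

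The promoters of the members are shown for a sequence that many of them share. The RefSeq promoter table (GRCm38.p6) held 7 of the 10 genes, namely Atf3, Egr2, Fos, Fosb, Jun, Junb and Nr4a1, and did not list Arc, Egr1 and Ier2. In the 250 bases before the start site, TGACG, the core of the site that Creb and related factors bind, was found on either strand in 6 of these 7 genes, and in 8 of their 11 listed promoters. Of all 32851 promoters of the table, 17.8% held it. Egr2 had 5 of the 11 listed promoters, so counts of promoters weigh that gene more. For each of the 6 genes the match nearest to the start site is printed with its surroundings, 5′ to 3′ on the strand of the gene, with the match in capitals. It is TGACG or, where the match lies on the other strand, CGTCA.
Fos: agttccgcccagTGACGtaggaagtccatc
Fosb: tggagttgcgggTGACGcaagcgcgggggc
Junb: gcttcctgacagTGACGcgagccgcctcct
Egr2: tatgggcagcgaCGTCAcgggtattgaaga
Nr4a1: cccctctccatgCGTCAcggagcgcttaag
Atf3: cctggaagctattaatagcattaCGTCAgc
The window of Fos is chr12:85473812-85473841 on the plus strand, with its match 62 bases from the start site. That of Fosb is chr7:19310088-19310117 on the minus strand, 56 bases from the start. That of Junb is chr8:84978837-84978866 on the minus strand, 102 bases away. Egr2 and Nr4a1 lie on the plus strand. Their windows are chr10:67537802-67537831, 51 bases from the start, and chr15:101266794-101266823, 36 bases from the start. The window of Atf3 is chr1:191183334-191183363 on the minus strand, and its match ends 3 bases from the start. The full palindrome TGACGTCA was in none of the 11 promoters and in 1.55% of all. The AP-1 site TGANTCA was also in none, against 6.75% of all. The EGR site GCGNGGGCG was in Fosb and Nr4a1, against 4.7% of all promoters. A CArG box, the site of serum response factor, was found within the 250 bases in Egr2 alone of the 7 genes. It was in 4 of the 5 listed promoters of Egr2, against 1.47% of all. Bases farther upstream, and the promoters of Arc, Egr1 and Ier2, were not searched. A match of letters is a description of the window and not a measurement of binding.

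Arc was highest in WT aorta at day 3 and lowest in smSocs3-KO aorta at day 3. Its 60-base probe matches mm9 chr15:74499592-74499651 and was well above background on all 12 arrays. In WT before the challenge it read -1.43, -1.13 and -0.87. In WT at day 3 it read 1.74, 0.52 and -0.66, so all 3 arrays were above the 3 arrays before the challenge, but the WT day 3 array of replicate 4 was close to them. In smSocs3-KO before the challenge it read -2.56, -1.71 and -1.86, below all 3 WT arrays of that stage. In smSocs3-KO at day 3 it read -2.11, -3.73 and -2.98, and these overlapped the smSocs3-KO arrays before the challenge.

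Ordered by their means, the groups were WT at day 3 (0.53 ± 1.20, SD, n = 3), WT before (-1.14 ± 0.28), smSocs3-KO before (-2.04 ± 0.45) and smSocs3-KO at day 3 (-2.94 ± 0.81). Neighbours in this order overlapped only between both smSocs3-KO groups. The change over the challenge was 1.68 in WT and -0.90 in smSocs3-KO, as log2 differences of means. The change in WT was 1.07 when WT day 3 replicate 1 was left out and 2.27 when replicate 4 of that group was. Within slide 2, with 3 arrays at day 3 and 2 before, the change in smSocs3-KO was -1.16. At day 3 the genotypes differed by -3.48, which is 11.1-fold lower in smSocs3-KO. With the normexp background correction the difference was smaller, -2.27 with quantile normalization and -2.45 with the 75th percentile. That is the difference Arc was chosen for, and it is given without a test.

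**Figure D1:**
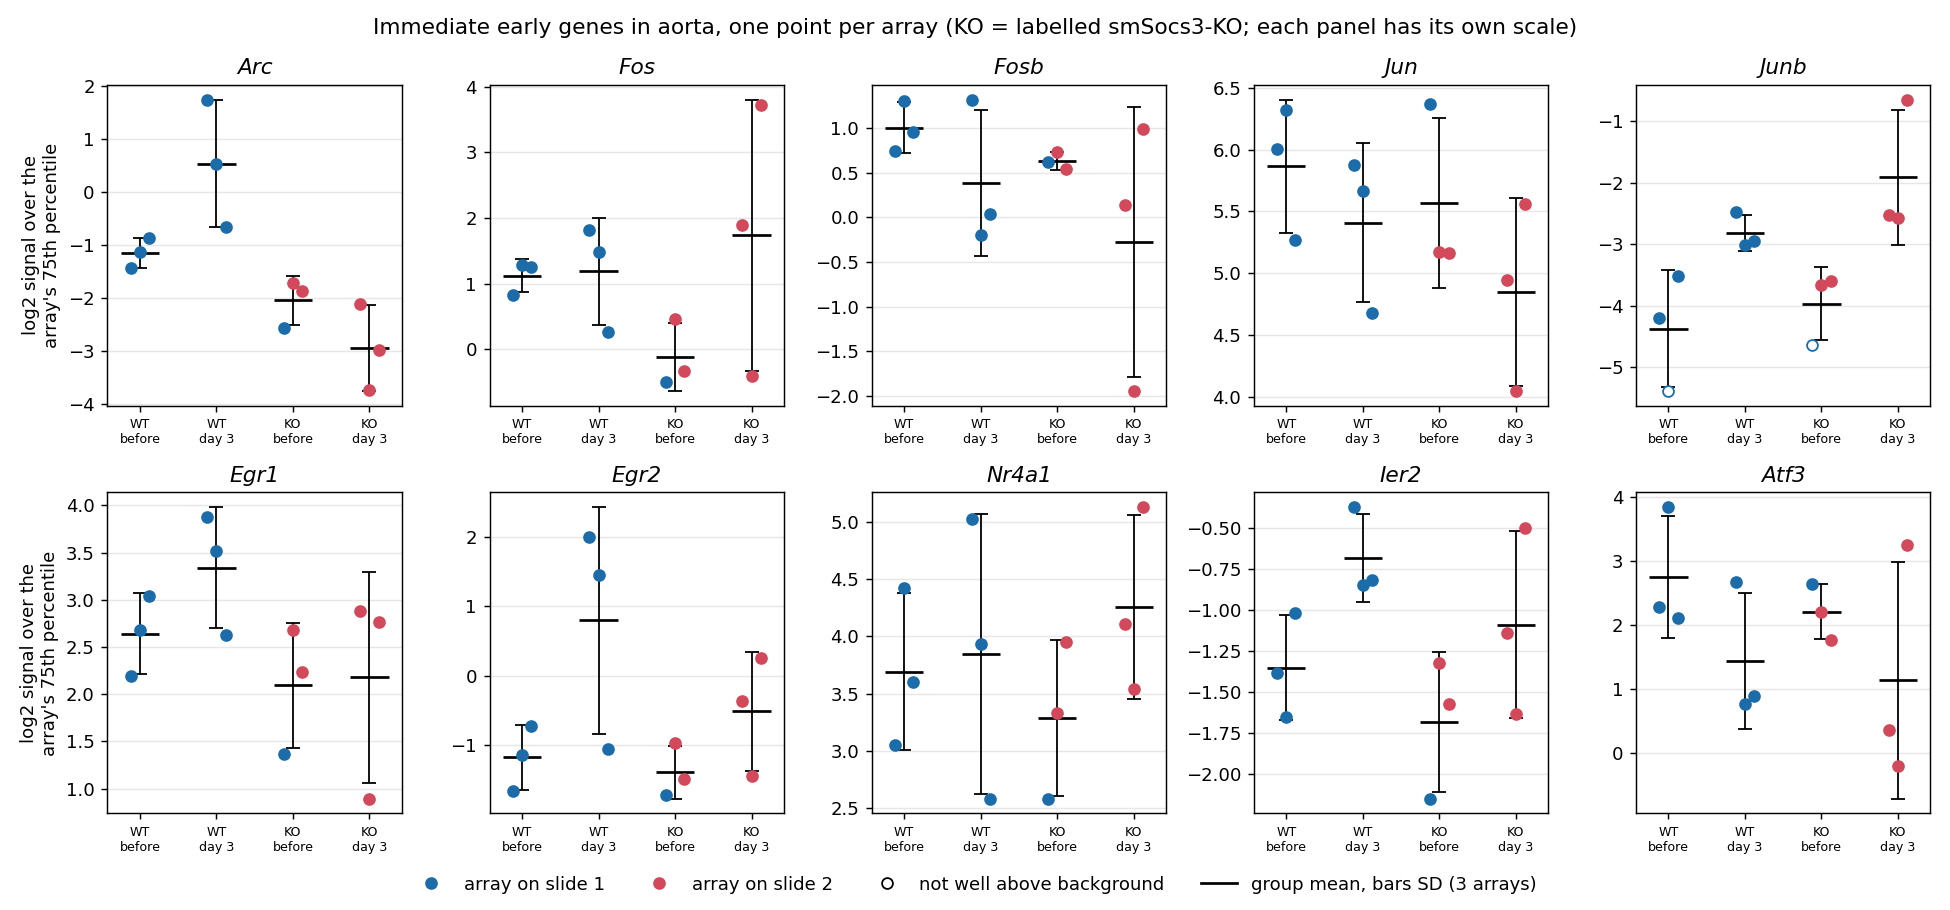
Each panel shows 1 gene, with the log2 signal over the array's 75th percentile on the vertical axis and 1 point per array in the 4 groups (KO marks arrays labelled smSocs3-KO, colours mark the slide, open points were not well above background, lines and bars are mean and SD of 3 arrays). Arc separates the genotypes at both stages, Junb reads higher on every day 3 array than before in both genotypes, and most other genes spread widely within WT day 3 and within smSocs3-KO day 3.

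The genes whose levels followed Arc most closely over the 12 arrays were, of 22756 others, Cmas, Hbegf, Gm6003, Stil and Cpd. Their Pearson r with Arc was 0.933, 0.931, 0.930, 0.922 and 0.918, and their Spearman rho 0.930, 0.846, 0.916, 0.846 and 0.923. The arrays share slides and groups, so these are descriptions with no p. Without the 2 arrays farthest from the median of Arc, r was 0.909 for Cmas, 0.850 for Hbegf, 0.860 for Gm6003, 0.831 for Stil and 0.835 for Cpd. Hbegf, which codes for a growth factor that activates the EGF receptor, is itself an early response gene. It read 2.65, 2.28 and 2.37 in WT before and 4.38, 3.94 and 3.16 in WT at day 3. In smSocs3-KO it read 2.11, 2.19 and 2.29 before and 2.83, 1.42 and 1.45 at day 3. Hbegf was thus above its earlier level on all WT day 3 arrays and on 1 of 3 smSocs3-KO day 3 arrays. Cmas, which makes the activated form of sialic acid, moved far less: it lay between 1.07 and 1.25 on the arrays before the challenge, between 1.45 and 1.71 in WT at day 3 and between 0.82 and 1.07 in smSocs3-KO at day 3. Of the other members, Egr1 was the closest to Arc, with r = 0.822 (rank 50), followed by Egr2 with r = 0.692 (rank 411) and Ier2 with r = 0.55 (rank 1509). Without the same 2 arrays these fell to 0.607, 0.406 and 0.242. Junb had no such likeness, with r = -0.10. These r over 12 arrays include the group differences, among them the one that Arc was chosen for. For deviations from the group means, r with Arc was 0.843 for Egr2, 0.837 for Egr1 and 0.740 for Nr4a1. The remaining members lay between 0.248 (Junb) and 0.605 (Fosb). It was 0.812 for Hbegf, 0.735 for Gm6003, 0.719 for Stil, 0.697 for Cpd and 0.655 for Cmas.

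**Figure D2:**
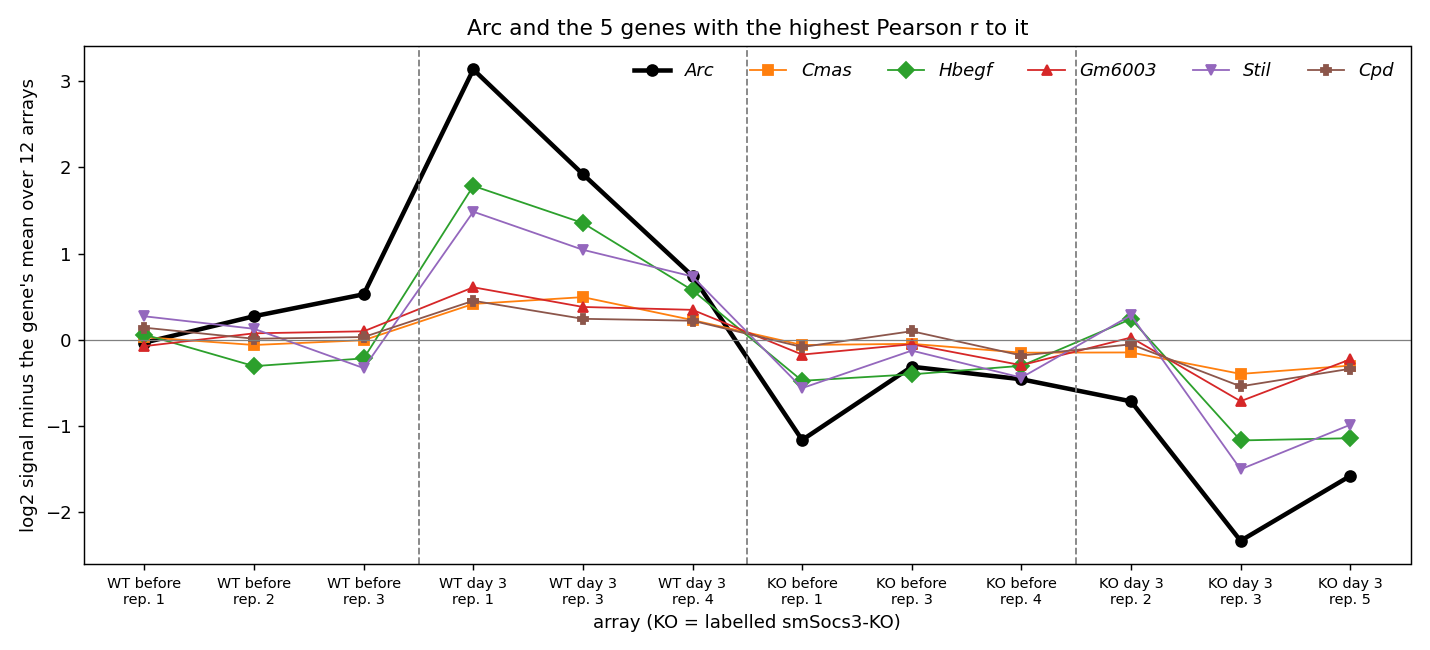
The log2 signal minus the gene's own mean over 12 arrays is plotted by array for Arc and the 5 genes with the highest Pearson r to it, with dashed lines between the groups (KO marks arrays labelled smSocs3-KO). All 6 genes are highest on the WT day 3 arrays of replicates 1 and 3 and lowest on the smSocs3-KO day 3 array of replicate 3, with Arc spanning the widest range.

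The FOS genes code for the partners of JUN in AP-1. Fos read 0.84, 1.28 and 1.25 in WT before the challenge and 1.81, 1.48 and 0.27 in WT at day 3. It read -0.50, 0.47 and -0.33 in smSocs3-KO before and 1.89, -0.40 and 3.72 at day 3. The smSocs3-KO day 3 arrays thus held both the highest level of Fos and 1 of the lowest. The Fos probe was printed in 10 spots on each array, and the SD between them was 0.035 to 0.19, far less than the gap between the highest and the lowest smSocs3-KO day 3 array. Among the Fos spots, 3 carried an outlier mark and were dropped, which left 9 spots on WT replicate 3 before the challenge and 8 on smSocs3-KO day 3 replicate 3.

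The change of Fos over the challenge was 0.07 in WT (SE 0.81, limma adjusted p = 0.967) and 1.86 in smSocs3-KO (SE 0.81, limma adjusted p = 0.199). Without smSocs3-KO day 3 replicate 3 the latter was 2.93 with a limma adjusted p of 0.0423, and without replicate 5 of that group it was 0.87 with 0.503. Of all genes, 421 of 22983 and 50 of 23013 were called in these fits. The result in smSocs3-KO rests on single arrays.

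**Figure D3:**
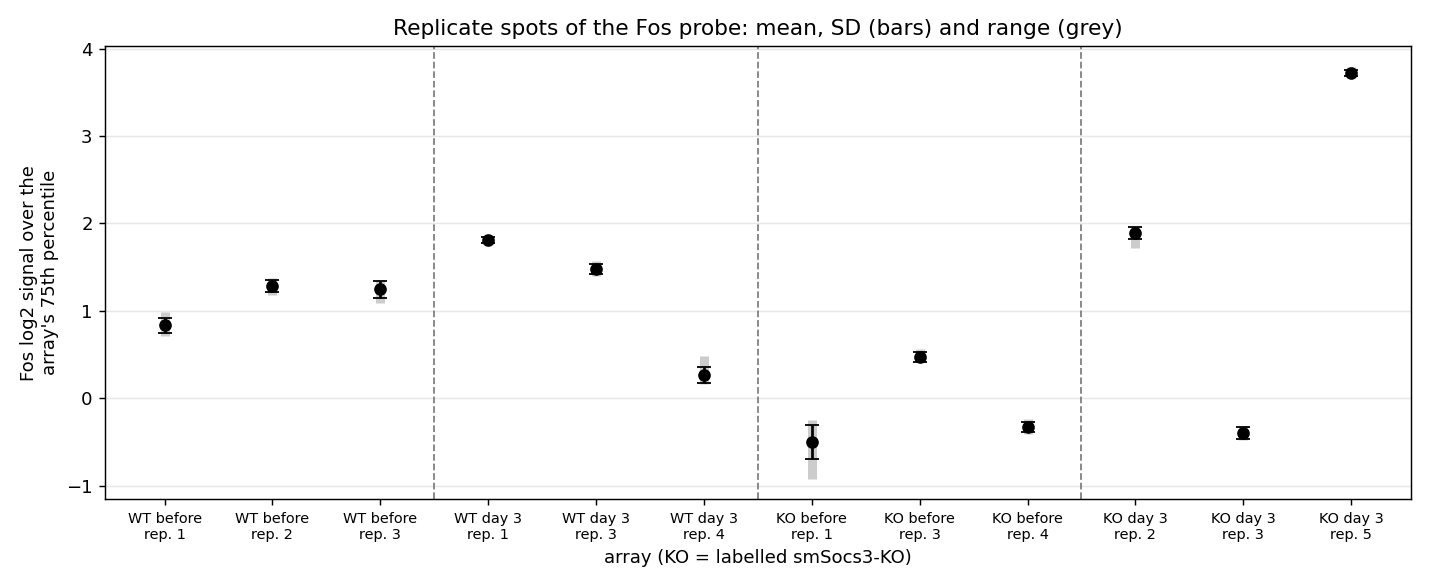
The Fos log2 signal over the array's 75th percentile is plotted by array, with points for the mean of 8 to 10 spots, bars for their SD and grey for their range (KO marks arrays labelled smSocs3-KO). The spots of 1 array lie close together, while the 3 smSocs3-KO day 3 arrays lie at 1.89, -0.40 and 3.72.

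Fosb, a FOS relative that accumulates with repeated stimulation in neurons, read 0.75, 1.31 and 0.95 in WT before and 1.32, -0.20 and 0.03 in WT at day 3. It read 0.62, 0.73 and 0.54 in smSocs3-KO before and 0.13, -1.94 and 0.99 at day 3. Both means were lower after the challenge, by log2 differences of -0.62 in WT and -0.90 in smSocs3-KO, but the groups overlapped in both genotypes. The limma adjusted p was 0.551 in WT and 0.391 in smSocs3-KO.

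Jun and Junb code for the JUN partners in AP-1, and Junb is commonly the weaker activator of the pair. Jun was bright on every array. It read 6.01, 6.32 and 5.27 in WT before, 5.88, 5.67 and 4.68 in WT at day 3, 6.37, 5.18 and 5.17 in smSocs3-KO before and 4.95, 4.05 and 5.56 in smSocs3-KO at day 3. The 4 groups overlapped, with changes over the challenge of -0.46 in WT (limma adjusted p = 0.567) and -0.72 in smSocs3-KO (limma adjusted p = 0.377). 

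Junb was the 1 member that read higher on every day 3 array than before the challenge in both genotypes. It read -4.21, -5.39 and -3.52 in WT before and -2.48, -3.02 and -2.95 in WT at day 3. In smSocs3-KO it read -4.65, -3.67 and -3.59 before and -2.53, -2.57 and -0.64 at day 3. The difference was 1.56 in WT, or 2.94-fold (SE 0.57, 95% interval 0.29 to 2.82, limma adjusted p = 0.120). It was 2.05 in smSocs3-KO, or 4.16-fold (SE 0.57, 95% interval 0.79 to 3.32, limma adjusted p = 0.0772). Neither passed the adjusted threshold of 0.05. The unadjusted limma p in smSocs3-KO was 0.00440. In the fit as reported, Junb was thus the 1 member of the 9 past the threshold the study used, a p under 0.01 with more than a 4-fold change. Of all genes, 1.44% were past it upward in smSocs3-KO, and 1.11% in WT, where no member of the 9 was. The Junb probe was dim, and it was not well above background on WT replicate 2 and smSocs3-KO replicate 1 before the challenge. It therefore passed the filter only through the day 3 groups, where it was high, so its tests are not independent of the filter. With another background correction (normexp) the difference in smSocs3-KO was 0.99 with quantile normalization and 0.77 with the 75th percentile, and that in WT was 0.54 and 0.40. In smSocs3-KO the change was under 4-fold with both, and also with the percentile of detected probes (1.94), within slide 2 (1.71), which leaves out replicate 1 before the challenge, and without day 3 replicate 5 (1.42), so Junb was then not past the study's threshold. Nor was it with the replicate number as a block (1.83), where Egr2 in WT (2.65) and Atf3 (-2.71) and Fosb (-2.03) in smSocs3-KO were past it. With single arrays left out, so were Egr2 in WT without day 3 replicate 4 (2.91), and in smSocs3-KO Fos without day 3 replicate 3 (2.93) and Atf3 without day 3 replicate 5 (-2.13). The share of all genes past it in these fits is not given here.

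The EGR factors are zinc finger proteins, of which Egr1 is a classical target of serum response factor. Egr1 read 2.19, 2.68 and 3.04 in WT before and 3.87, 3.52 and 2.63 in WT at day 3. It read 1.37, 2.68 and 2.23 in smSocs3-KO before and 2.88, 0.89 and 2.76 at day 3. The stages overlapped in both genotypes, with differences of 0.70 in WT (limma adjusted p = 0.428) and 0.09 in smSocs3-KO (limma adjusted p = 0.933). Egr2, a relative that is induced with it in many cells, read -1.67, -1.14 and -0.73 in WT before and 2.0, 1.46 and -1.06 in WT at day 3. It read -1.72, -0.97 and -1.49 in smSocs3-KO before and -0.36, -1.44 and 0.25 at day 3. Of the WT day 3 arrays, 2 were more than 2 units above the WT arrays before the challenge and the other was among them.

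The difference of Egr2 was 1.98 in WT, or 3.94-fold (SE 0.69, limma adjusted p = 0.106), and 0.88 in smSocs3-KO (SE 0.69, limma adjusted p = 0.450). Without WT day 3 replicate 4, the difference in WT was 2.91 with a limma adjusted p of 0.0041, so 1 array decided that call. The calls of all genes moved with that array too: 3665 of 22938 were called in WT without it, and 1065 of 22761 with it. Egr3 and Egr4, the remaining EGR genes, were not well above background on any array. Of the NAB repressors, which EGR factors induce and which hold them in check, Nab1 and Nab2 were tested, and neither passed the threshold in any comparison.

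Nr4a1, the nuclear receptor Nur77, read 3.05, 4.42 and 3.60 in WT before and 5.02, 3.93 and 2.58 in WT at day 3. It read 2.58, 3.33 and 3.95 in smSocs3-KO before and 4.11, 3.54 and 5.13 at day 3. Its differences over the challenge were 0.15 in WT (limma adjusted p = 0.895) and 0.97 in smSocs3-KO (limma adjusted p = 0.362). Both WT extremes lay within the day 3 group.

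Ier2, a small nuclear protein of the early response, varied least among the members. It read -1.38, -1.66 and -1.02 in WT before and -0.37, -0.85 and -0.82 in WT at day 3, with no overlap. It read -2.15, -1.32 and -1.57 in smSocs3-KO before and -1.14, -1.63 and -0.50 at day 3, with overlap. The differences were close to each other, 0.67 in WT (SE 0.31, limma adjusted p = 0.198) and 0.59 in smSocs3-KO (SE 0.31, limma adjusted p = 0.271).

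Atf3 had lower means at day 3 in both genotypes. It read 2.28, 3.84 and 2.11 in WT before and 2.67, 0.76 and 0.89 in WT at day 3. It read 2.64, 2.21 and 1.77 in smSocs3-KO before and 0.35, -0.20 and 3.25 at day 3. In each genotype, 2 of the 3 day 3 arrays lay below all earlier arrays and the other was among or above them. The differences were -1.30 in WT (SE 0.84, limma adjusted p = 0.343) and -1.07 in smSocs3-KO (SE 0.84, limma adjusted p = 0.450).

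Counted together, 0 of the 9 members other than Arc passed a limma adjusted p of 0.05 in the WT challenge response, where 4.68% of all genes did. The count was also 0 of 9 in the smSocs3-KO challenge response, where 2.45% of all genes did. At an unadjusted p under 0.05 there were 2 of 9 in each, Junb and Egr2 in WT, beside 26.6% of all genes, and Fos and Junb in smSocs3-KO, beside 23.8%. In WT, 2 of the 9 members other than Arc, Junb and Ier2, were higher at day 3 with no overlap of the groups, and 20.7% of all genes were. Arc, which was chosen on the day 3 arrays, was too. In smSocs3-KO only Junb was, against 14.1% of all genes. The Junb probe passed the filter only through the day 3 groups, where it was high. Its place in each of these counts, in WT and in smSocs3-KO, is therefore not independent of the filter. The median difference of the 10 members was 0.41 in WT and 0.34 in smSocs3-KO, beside -0.02 and -0.06 over all genes. Without Arc, the middle difference of the 9 was that of Nr4a1 in WT, 0.15, and that of Ier2 in smSocs3-KO, 0.59. 7 of the 10 differences were above 0 in WT and 6 in smSocs3-KO, with Fosb, Jun and Atf3 below 0 in both genotypes. Arc was among the 7 in WT and was below 0 in smSocs3-KO. The intervals were wide: for Fos in WT the 95% interval ran from -1.73 to 1.86, so a rise or fall of more than 3-fold was within it.

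**Figure D4:**
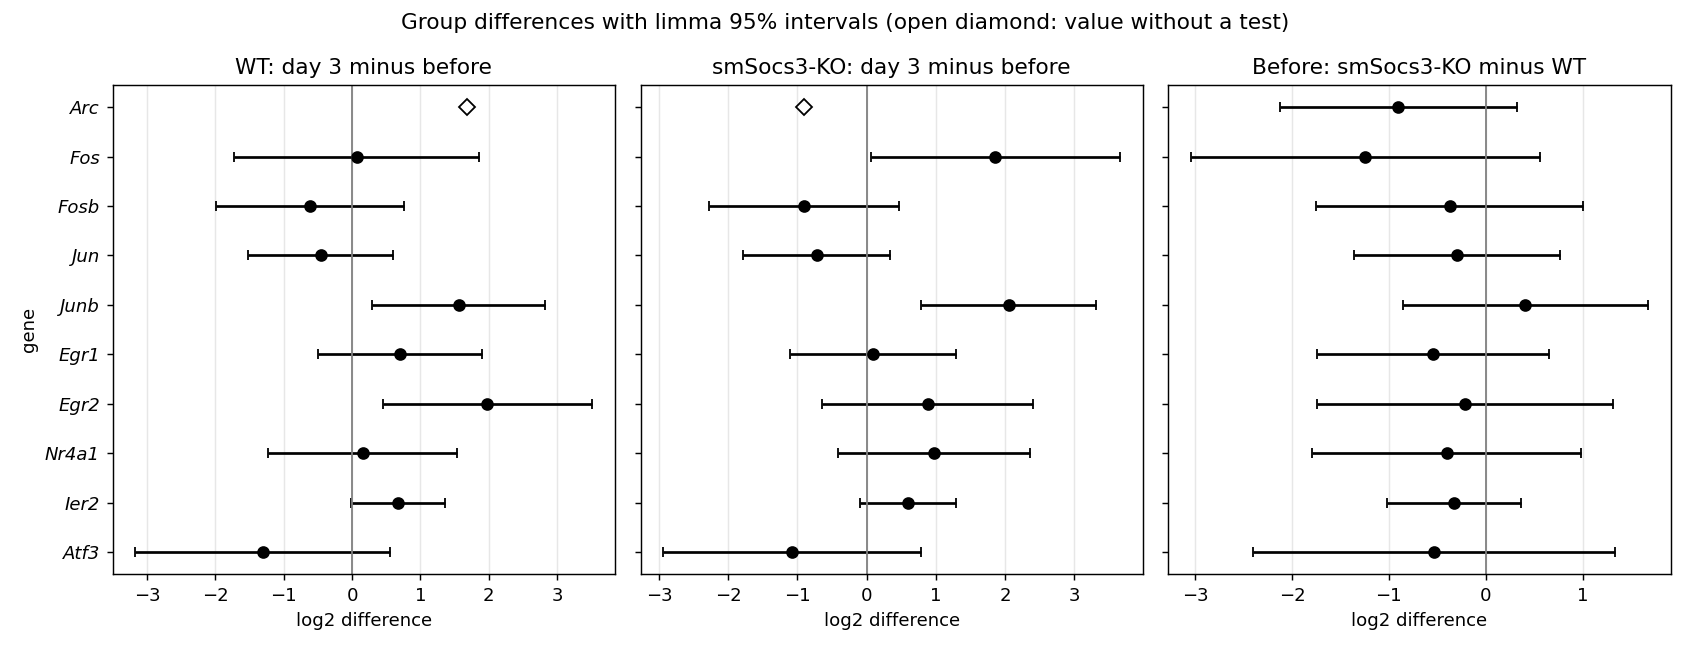
The log2 difference of each gene is shown with its limma 95% interval for day 3 minus before in WT and in smSocs3-KO and for smSocs3-KO minus WT before the challenge, with an open diamond where no test was made. Of the tested intervals, those of Junb and Egr2 in WT and of Fos and Junb in smSocs3-KO leave out 0 before adjustment, and most estimates in the comparison before the challenge lie below 0. The Junb probe passed the filter only through the day 3 groups, so its intervals for the challenge are not independent of the filter.

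Before the challenge, 9 of the 10 members had lower means in smSocs3-KO than in WT, with a median difference of -0.39, while the median of all genes was 0.00. None of the 10 passed the adjusted threshold with limma, and 0 had an unadjusted p under 0.05. Of all genes, 0.0264% passed the adjusted threshold and 4.4% the unadjusted one. Arc, Fos and Fosb were lower in smSocs3-KO with no overlap of the groups, 3 of 10 members beside 4.6% of all genes. The difference of Arc was -0.90 (SE 0.56, 95% interval -2.13 to 0.32), that of Fos -1.24 (SE 0.81, 95% interval -3.04 to 0.56) and that of Fosb -0.37 (SE 0.62, 95% interval -1.75 to 1.0). Junb alone had the opposite sign, at 0.41. Only 1 of the 3 smSocs3-KO arrays lay on the slide of the WT arrays. Set against the 3 WT arrays on slide 1, it was lower by -1.42 for Arc, -1.62 for Fos and -0.38 for Fosb, and higher by 0.50 for Jun. Markers of mesothelium, the lining of the body cavities, moved with genotype at this stage. Their 6 genes were all higher in smSocs3-KO, and the summed level was 2.0 to 4.55 in WT and 4.86 to 6.05 in smSocs3-KO. Their part in the members' values was not tested.

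At day 3, the members other than Arc overlapped between genotypes. Beside the -3.48 of Arc, the log2 difference of smSocs3-KO minus WT was -1.31 for Egr2, -1.16 for Egr1, -0.66 for Fosb, -0.56 for Jun, -0.41 for Ier2 and -0.30 for Atf3. It was 0.41 for Nr4a1, 0.55 for Fos and 0.90 for Junb. Several of these signs turned with a block for the slide, which at day 3 rests on the 1 smSocs3-KO array before the challenge on slide 1. The values were then -0.65 for Nr4a1, -0.02 for Fos, -0.12 for Junb, 0.64 for Jun and 0.35 for Atf3, and -4.25 for Arc. Mesothelial markers also moved with genotype at day 3: all 6 had higher means in smSocs3-KO, and their summed level was 1.47 to 3.82 in WT and 4.98 to 5.44 in smSocs3-KO. Of the 8 fibroblast markers, 6 had higher means in smSocs3-KO, among them Dpt and Pi16 by 1.99 and 1.64. Col1a1 and Col1a2 were lower, at -0.46 and -0.41. The summed level of the 8 was 10.4 to 10.6 in WT and 10.5 to 10.8 in smSocs3-KO. Their part in the members' values was not tested. Over all genes, 12.7% were lower in smSocs3-KO at day 3 with no overlap. The difference between both challenge responses, smSocs3-KO minus WT, was -2.57 for Arc, -1.10 for Egr2, -0.62 for Egr1 and 1.79 for Fos, with the remaining members between -0.29 and 0.82. For Arc it was -1.74 with normexp and quantile normalization. Across all genes, limma called 0 genes for this difference at the adjusted threshold (0%) and 5.33% at an unadjusted p under 0.05.

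The members varied more between arrays of 1 group than most genes did, and they tended to do so together. The SD within groups was 0.77 for Arc, 1.15 for Fos, 0.87 for Fosb, 0.66 for Jun, 0.80 for Junb, 0.75 for Egr1, 0.97 for Egr2, 0.88 for Nr4a1, 0.41 for Ier2 and 1.19 for Atf3. The median of 22757 genes was 0.318, and 9 of the 10 members lay above the 88th percentile, with Atf3 at 99.1 and Ier2 lowest at 66.5. On the WT day 3 array of replicate 1 all 10 members were above their group mean, by 0.80 on average. On replicate 4 of that group 0 of 10 were, with an average of -0.79. Among the smSocs3-KO day 3 arrays, 9 of 10 members were above the mean on replicate 5, by 1.01 on average, and 0 of 10 on replicate 3, with -1.09. With 3 arrays in a group, the deviations of its arrays sum to 0.

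Deviations from the group mean had a positive Pearson r over the 12 arrays in 44 of the 45 pairs of members, with a median of 0.61. The pairs share arrays, and no p is given. The highest were Junb with Ier2 (0.90) and Fos with Fosb (0.89), and the 1 pair below 0 was Jun with Junb (-0.05). The median r of a member with all other genes lay between -0.05 and 0.04. Left out in turn, single arrays changed the number of positive pairs to between 41 and 45 and the median r to between 0.47 and 0.70.

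**Figure D5:**
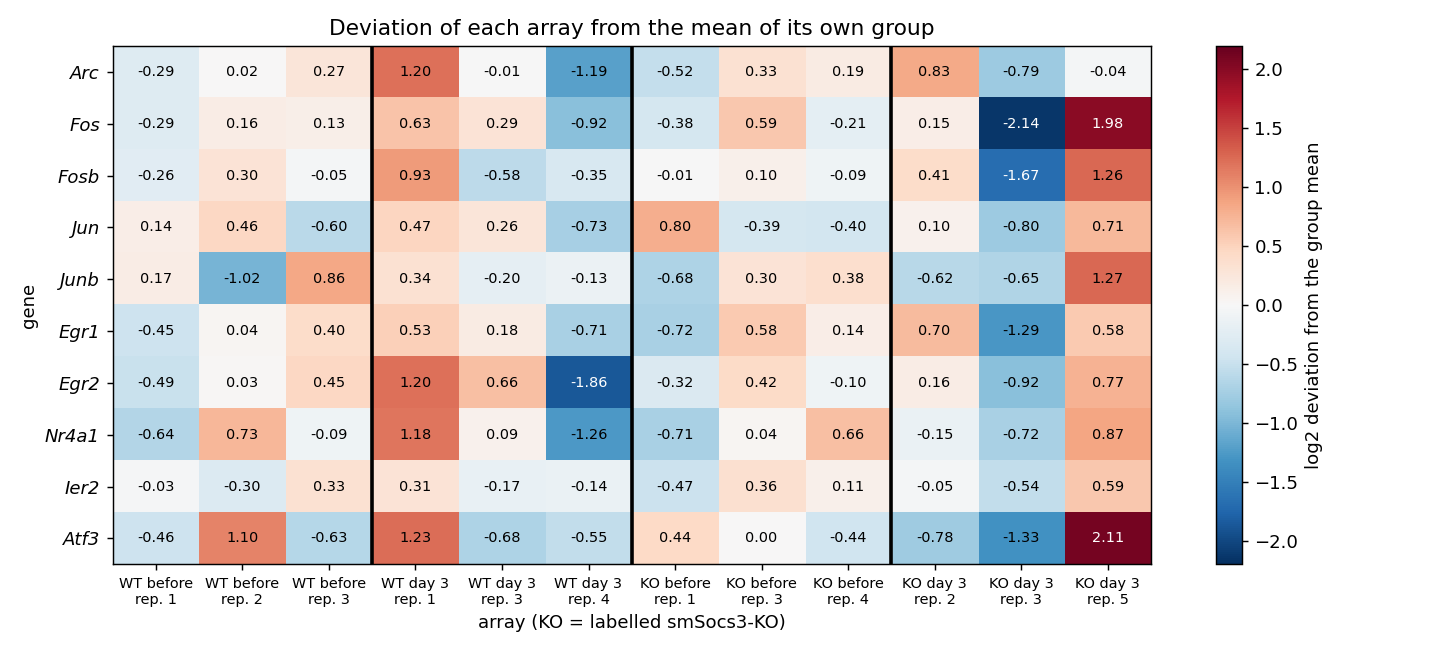
The colour and number in each cell give the log2 deviation of 1 gene on 1 array from the mean of that array's group, with genes as rows, arrays as columns and lines between groups (KO marks arrays labelled smSocs3-KO). The columns of WT day 3 replicate 1 and smSocs3-KO day 3 replicate 5 are nearly all above 0, and those of WT day 3 replicate 4 and smSocs3-KO day 3 replicate 3 are all below 0.

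Markers of the cells of the aorta were set beside these arrays. Among the 8 smooth muscle markers, the mean deviation from each gene's average over the 12 arrays was -0.41, -0.37 and 0.36 on WT day 3 replicates 1, 3 and 4, and -0.15, -0.16 and -0.63 on smSocs3-KO day 3 replicates 2, 3 and 5. The 8 macrophage markers read 0.97, 0.38 and -0.69 on the same WT arrays and 0.97, 1.06 and 1.11 on the same smSocs3-KO arrays. In WT at day 3, the array on which all members were low thus had the lowest macrophage and the highest smooth muscle markers. In smSocs3-KO at day 3, the macrophage markers differed little between the arrays on which the members were high and low. In the smSocs3-KO challenge response, 4 of the 8 macrophage markers rose at a limma adjusted p under 0.05, beside 1.71% of all genes, and 0 in WT, beside 3.59%. All 8 had higher means at day 3 in each genotype, and 7 of 8 had an unadjusted limma p under 0.05 in each. Whether the genotypes differed in this was not tested for the list. The part of cell makeup in the members' values was not tested, and in whole tissue fewer cells of a type and less RNA per cell cannot be told apart. The neuronal markers Nefl and Nefm were not well above background on any array. The 7 tested markers of neurons and glia had a summed level of 6.81 to 7.70 in WT and 6.28 to 6.72 in smSocs3-KO at day 3. Before the challenge it was 7.96 on the smSocs3-KO array of slide 1, and 6.57 and 6.51 on those of slide 2. All arrays of slide 1 thus lay above all arrays of slide 2. At day 3 the mean deviations of these markers overlapped, at 0.22, 0.22 and -0.36 in WT and 0.01, 0.29 and 0.03 in smSocs3-KO. Their part in the values of Arc was not tested.

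Other genes of the early response were taken from 3 lists, the remaining AP-1 relatives, other early transcription factors and other early genes, with 75 genes of which 69 were tested. In the WT challenge response 3 of 69 rose at a limma adjusted p under 0.05, or 4.35%, where 3.59% of all genes rose. They were Maff, a small MAF protein (1.19), Ier5l (1.14) and Plk2, a polo-like kinase (1.81). In the smSocs3-KO challenge response 7 of 69 rose, or 10.1%, beside 1.71% of all genes. Among them were Snai1, a repressor of epithelial genes (2.53), Bhlhe40, a clock-linked repressor (1.95), Trib1, a pseudokinase (1.58), Batf, an AP-1 relative of immune cells (1.57), Maff (1.36) and Ier5l (1.36). None of the 69 fell at that threshold in either response, where 1.09% of all genes fell in WT and 0.734% in smSocs3-KO. Maff and Ier5l rose in both genotypes. The medians over the 69 genes were 0.29 in WT and 0.39 in smSocs3-KO.

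These counts depended on single arrays, and the share of all genes called higher moved with them. In smSocs3-KO the count was 0 without replicate 1 or 3 of its group before the challenge or without replicate 5 at day 3. It was 3 without smSocs3-KO replicate 4 before the challenge, smSocs3-KO day 3 replicate 2 or any of the 3 WT arrays before the challenge, and 12 without WT day 3 replicate 4. Of all genes, 0.131% to 0.169% were called higher where the count was 0, 0.51% to 1.3% where it was 3 and 5.48% where it was 12. In WT it was 15 without WT day 3 replicate 4, with 10.1% of all genes, and 6, with 6.75%, without smSocs3-KO replicate 1 before the challenge. It was 0 without any 1 of the 3 WT arrays before the challenge, WT day 3 replicates 1 or 3, or smSocs3-KO replicate 4 before the challenge, and then at most 0.0219% of all genes were called higher. A block for the slide gave 0 in smSocs3-KO, with 0.171% of all genes, and 6 in WT, with 7.09%.

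Upstream of the early genes, 27 of 30 listed genes of the AngII receptors, kinases, serum response factor partners and Creb coactivators were tested. Crtc3, a Creb coactivator, was the 1 gene past the adjusted threshold in the challenge responses, where it fell in WT by 1.24 (limma adjusted p = 0.0372, beside 1.09% of all genes that fell) and read -0.89 in smSocs3-KO (limma adjusted p = 0.0960). Without WT replicate 1 or 2 before the challenge, limma called 0 genes in WT, so the call of Crtc3 rests on single arrays. Of 7 tested partners of Arc, Camk2b, a subunit of the calcium kinase of synapses, fell in smSocs3-KO by 1.83 (limma adjusted p = 0.0192, beside 0.734% of all genes) and read -0.59 in WT (limma adjusted p = 0.229). Over all genes, 167 were called lower in smSocs3-KO, and 12 without its replicate 3 before the challenge. Whether Camk2b was among the 12 is not reported here. Among 10 heat shock chaperones and 13 clock genes, limma called 0 in either challenge response. Unadjusted, 3 chaperones in WT and 0 in smSocs3-KO had a p under 0.05, and of the clock genes 0 in WT and 8 in smSocs3-KO, where 26.6% and 23.8% of all genes did.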

How the data were processed

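The authors deposited scanner files of 12 one-colour arrays, with a linear, background-subtracted intensity for each spot, and a quantile normalized table of linear intensity values, whose columns correlated with their own arrays (Spearman rho at least 0.99997). The labels name Feature Extraction 9.5.1.1, and the file headers name 10.7.1.1. Processed signals were put on the log2 scale without control and outlier spots, averaged by probe and set relative to the array's 75th percentile. A probe was kept where 1 or more groups had it well above background on each of their arrays (32283 of 55681), and the brightest kept probe stood for a gene. Group means were fitted for 22761 genes with limma 3.58.1 in R 4.3.3, with Benjamini-Hochberg adjustment over all of them. The fit was tested on simulated data. The genes named beyond the members passed the adjusted threshold in a list, or were the 5 most like Arc, with these exceptions. Socs3 was named as the targeted gene, and Nab1 and Nab2 as the tested repressors of EGR factors. Egr3, Egr4, Nefl and Nefm were named as not well above background on any array. Col1a1 and Col1a2 were named as the fibroblast markers that were lower in smSocs3-KO at day 3. Some list members are not reported here. Members and lists were chosen with earlier results of these data known. Alternatives covered background correction, normalization, filter, probe choice, moderation, arrays fitted, slide, replicate number and each array left out. No probe's gene part was checked against a genome of its build (mm9). The number of arrays limits the precision.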

Additional observations from a re-analysis of the deposited data

Results flagged for a closer look

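The mean of Arc rose over the challenge in WT and fell in smSocs3-KO. All 3 WT day 3 arrays lay above the mean of WT before the challenge, and all 3 smSocs3-KO day 3 arrays lay below the mean of smSocs3-KO before the challenge. The smSocs3-KO groups overlapped, with day 3 replicate 2 at -2.11 and replicate 1 before the challenge at -2.56. The difference of both responses, smSocs3-KO minus WT, was -2.57 on the log2 scale. It was not tested, because Arc was chosen on the day 3 arrays for a low level in smSocs3-KO, a choice that favours a negative value. With each array left out in turn it lay between -3.17 and -1.97. Over the other alternatives it lay between -3.61, with the replicate number as a block, and -1.74, with normexp and quantile normalization. At day 3 the smSocs3-KO arrays lay on another slide than the WT arrays, and slide and genotype cannot be told apart there.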

How the results depend on the processing

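No tested member passed the adjusted threshold in any of 12 alternative settings in either challenge response or in the comparison before the challenge. In some of these settings almost no gene passed, so a count of 0 there says little about the members. In WT, 0 of 22761 genes passed with the arrays compared fitted alone and with the replicate number as a block. Without a filter on dim probes, 10 of 34797 did. In smSocs3-KO, 2 of 22761 passed with the replicate block. Before the challenge, 0 to 7 genes passed. With single arrays left out, the count of members ranged from 0 to 1 in WT, where the 1 was Egr2 without WT day 3 replicate 4. In that fit 3665 of 22938 genes were called, while without WT replicate 1 before the challenge 0 of 22862 were. The count of members also ranged from 0 to 1 in smSocs3-KO, where the 1 was Fos without smSocs3-KO day 3 replicate 3, with 421 of 22983 genes called. It was 0 in the comparison before the challenge. The percentile over detected probes moved the median of all genes to -0.18 in WT and -0.17 in smSocs3-KO. Small differences changed sign, and the cause was not tested. In WT, Fos was -0.0927 with the percentile of detected probes and -0.000337 with the authors' table, and Nr4a1 was -0.0347, -0.0720, -0.00440 and -0.0735 with normexp and quantile normalization, quantile normalization, detected probes and the authors' table. In smSocs3-KO, Egr1 was -0.0108 with normexp and quantile normalization, -0.0256 with detected probes and -0.28 with the slide as a block. Before the challenge, the slide as a block gave Jun 0.50, Junb -0.27 and a median of all members of -0.67, and at day 3 it gave Egr1 -2.24 and Ier2 -1.12. With single arrays left out, Fos in WT ranged from -0.25 to 0.53, Nr4a1 in WT from -0.43 to 0.79 and Egr1 in smSocs3-KO from -0.28 to 0.73. Before the challenge, Junb ranged from -0.11 to 0.83, Egr2 from -0.46 to 0.0105 and Atf3 from -0.85 to 0.0144.

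The fit as reported did not pair arrays by replicate number. Over 11 pairs of same-numbered arrays, deviations from the group means correlated with r from -0.40 to 0.46 (median 0.07), and in 4 pairs r was over 0.1. Over 43 pairs of differently numbered arrays r ran from -0.44 to 0.48 (median -0.01), and in 8 it was over 0.1. With 3 arrays in a group, these values cannot decide whether the numbers pair the samples. With the replicate number as a block, Jun was 0.0347 in WT. In smSocs3-KO, Fos was -0.0274, Egr1 -0.94, Egr2 -0.34 and Nr4a1 -0.0890. Before the challenge, Fosb was 0.0847, Jun 0.20, Egr2 0.46, Nr4a1 0.0421 and Atf3 0.0537, and the median of the members was 0.0479. At day 3 the genotype difference was -1.33 for Fos, -0.65 for Nr4a1, -1.33 for Jun, -2.18 for Egr1 and -1.94 for Atf3. The difference between both challenge responses was -3.61 for Arc, -0.76 for Fos, -1.87 for Fosb, -1.53 for Jun, -2.11 for Egr1, -2.99 for Egr2, -0.69 for Nr4a1 and -2.00 for Atf3. The replicate block left 0 of the other early genes called higher in WT, with 0% of all genes, and in smSocs3-KO, with 0.00439%.

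The counts of other early genes called higher were 3 in WT and 7 in smSocs3-KO. The share of all genes called higher, given in brackets, was 3.59% and 1.71% there and moved with the setting. In WT the counts were 5 with normexp and quantile normalization (3.65%), 0 without a filter on dim probes (0.0144%) and 8 with probes detected on all arrays (5.11%). They were 9 with trend and robust moderation (6.53%), 0 with the arrays compared fitted alone (0%) and 6 with the slide as a block (7.09%). In smSocs3-KO the counts were 11 with normexp and the 75th percentile (2.65%), 3 without a filter (0.333%) and 0 with the slide as a block (0.171%). With single arrays left out they ranged from 0 to 15 in WT and from 0 to 12 in smSocs3-KO. Brightness over background limits Junb, which no alternative with probes detected on all arrays could include.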
